A study of Mus musculus with 4 samples.

Results

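Mouse chromosome 8 was described through 470 of its genes, out of 50600 gene rows in the deposited table. A gene was taken when its location began on chromosome 8 and its value averaged at least 5 over the 4 libraries. Of 2540 chromosome 8 rows, 1803 were listed at 0 in every library and 522 reached that mean. From these, 52 were left out by name: 9 name beginnings (Zfp, Slc, Nduf, Cox, Mrp, Rpl, Rps, Arhg and Prdx) and 22 single names, such as Cdh1, Klf2 and the metallothionein genes. Among the 470 members, 457 were protein-coding, and their starts and ends ran from chr8:3500457 to chr8:128733200 on mm10. All 470 passed the filter on low values used for the test; 9 had a WT mean under 5 and 5 had a Myh9 KO mean under 5, so these 14 entered through the other group. The chromosome was picked because its genes were already known to differ between the groups, so the size of its shift is described below without a test.

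RNA-seq had been run on OG2ES, a mouse embryonic stem (ES) cell line whose labelled tissue is the inner cell mass, grown in mES medium with 2i (a pair of kinase inhibitors that supports naive pluripotency) and given no further treatment. There were 2 libraries of genotype WT and 2 of genotype Myh9 KO. Myh9 encodes the heavy chain of nonmuscle myosin IIA, and the series asks how its loss relates to colony shape and pluripotency. The labels do not say that the libraries came from separate cultures, so p-values cover only how far these libraries spread, and that spread may be technical. They do not give the number of knockout clones either, and a change carried by a knockout line and an effect of losing Myh9 cannot be told apart.

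The targeted gene matched the labels. Myh9 (chr15:77760587-77842175) had values of 83 and 100 in the WT libraries and 9 and 9 in the Myh9 KO libraries, -3.20 on the log2 scale (SE 0.12, adjusted p = 0.00675 by limma). Values were whole numbers with sums from 992098 to 992317 a library, so they were treated as normalized scores and the sequencing depth is unknown. The 10 ES cell markers were above 0 in every library and summed to 9926 and 10159 in WT and to 8702 and 8539 in Myh9 KO. Dppa5a (4755 and 4841 in WT, then 3438 and 3205 in Myh9 KO) accounted for the lower sum: without it the other 9 summed to 5171 and 5318 in WT, then 5264 and 5334 in Myh9 KO. That sum hides single changes in both directions, picked here after the values were seen. Sox2 had 177 and 183 in WT, then 126 and 121 in Myh9 KO. Zfp42 had 140 and 142 in WT, then 210 and 181 in Myh9 KO. Feeder fibroblast markers summed to 4 to 7, with 6 of 8 at 0 in every library; trophoblast markers summed to 20 to 24, with 3 of 5 at 0. Primitive endoderm markers, with 3 of 5 at 0, summed to 1 and 2 in WT, then 5 and 6 in Myh9 KO; their part in the chromosome 8 shift was not tested. These are bulk libraries, in which fewer cells of a type and less RNA per cell cannot be told apart.

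Gene dosage is the dependence of a gene's output on the number of its copies. When a cell carries an extra copy of a chromosome, most transcripts from it tend to rise by a modest and similar factor over its whole length, whatever the genes do, while part of them is buffered. Gain of chromosome 8 is a recurrent karyotype change of mouse ES cells in culture. If transcripts followed copy number exactly, 3 copies in place of 2 would give 1.5-fold, or 0.58 on the log2 scale. DNA copy number was not measured here: an extra copy in all cells, an extra copy in some cells and altered transcription of many genes cannot be told apart in these values.

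Since a gene is also regulated on its own through its promoter, the sequence just upstream is shown for 3 of the 10 largest named rises and 2 of the 3 named falls. These are the bases that end directly before the RefSeq transcription start, on GRCm38.p6 (the mm10 build), written 5′ to 3′ along the gene's strand, with capitals marking matches to the searched motifs CCAAT and GGGCGG on either strand. They were chosen after the values were seen. As placed in the deposited data, Psmb10 begins 52 bases and Gcsh 39 bases upstream of the RefSeq start. That many of their shown bases therefore lie inside the gene as listed. Psmb10 lies on the minus strand (chr8:105938393-105938492), Adgrl1 on the plus strand (chr8:83899998-83900097), Necab2 on the plus strand (chr8:119446619-119446718), Gabarapl2 on the plus strand (chr8:111940603-111940702) and Gcsh on the minus strand (chr8:116993499-116993598).
Psmb10: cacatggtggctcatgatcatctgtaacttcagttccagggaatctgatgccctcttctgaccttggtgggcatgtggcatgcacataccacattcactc
Adgrl1: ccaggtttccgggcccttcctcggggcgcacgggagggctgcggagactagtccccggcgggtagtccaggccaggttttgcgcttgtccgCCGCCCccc
Necab2: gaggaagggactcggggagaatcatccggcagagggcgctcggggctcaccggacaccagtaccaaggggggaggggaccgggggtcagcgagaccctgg
Gabarapl2: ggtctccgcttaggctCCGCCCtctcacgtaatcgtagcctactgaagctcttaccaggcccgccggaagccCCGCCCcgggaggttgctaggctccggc
Gcsh: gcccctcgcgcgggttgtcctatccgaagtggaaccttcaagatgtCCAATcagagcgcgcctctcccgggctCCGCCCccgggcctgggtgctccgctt

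The first 3 of these genes rose in Myh9 KO and the last 2 fell. In the shown bases, Adgrl1 held 1 GGGCGG match, Gabarapl2 held 2, Gcsh held 1 together with 1 CCAAT match, and Psmb10 and Necab2 held neither. A RefSeq promoter was matched by symbol for 323 of the 470 members. Within the 250 bases before the start, GGGCGG (the core of the GC box) was found on either strand in 64.7% of these, against 63.8% of 5120 genes of the other 17 autosomes chosen by the same rule and 32.9% of all 27025 genes of the RefSeq promoter table. TATAAA was found in 5.57%, 5.35% and 13.0% of the same sets, and CCAAT in 34.7%, 38.0% and 34.5%; no motif of the 3 contains another. Among the 52 matched members called higher, 26 held CCAAT and 63.5% held GGGCGG, against 31.6% and 64.7% of the 269 that were not called. The median number of CpG dinucleotides was 18 in members, 17 in genes of the other autosomes and 6 in the whole promoter table, so member promoters held about as many as those of other expressed genes. A match is a description of letters and not a binding site.

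Genes of chromosome 8 were higher in both Myh9 KO libraries, by a small and widely shared amount. The summed value of the 470 members made up 3.3% and 3.33% of all values in the WT libraries and 3.82% and 3.9% in the Myh9 KO libraries. The ratio of the sums was 1.16, and it lay between 1.15 and 1.18 over the 4 pairs of a Myh9 KO and a WT library. Over all chromosome 8 rows, including those left out by name, the shares were 5.63% and 5.62% in WT, against 6.1% and 6.28% in Myh9 KO. That rise was about the size of the members' own, so the other rows together changed little in summed value.

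Per gene, the median log2 fold change of the members (Myh9 KO over WT, on the log2(value + 1) scale used throughout, which understates changes of low values) was 0.21, with quartiles of 0.01 and 0.37. Taken library by library against the WT mean, the members' median stood at -0.02 in WT 1, 0.02 in WT 2, 0.20 in Myh9 KO 1 and 0.21 in Myh9 KO 2. The WT libraries therefore lay within 0.04 of each other, and the Myh9 KO pair differed by less than that. For 6625 genes of the other 17 autosomes (all but 6 and 8, same mean and name rule), the median was -0.03, with quartiles of -0.22 and 0.15. The difference between the medians was 0.24, equal to 1.18-fold, with a pooled SD between libraries of 0.00759. It was below the 0.58 that a step from 2 to 3 copies would give with full proportionality.

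The shift was spread over many members rather than held by a few with large changes. The spread of chromosome 8 fold changes, an interquartile range of 0.35, was close to the 0.36 of the other autosomes, with the centre moved upwards. A log2 fold change above 0 was seen in 363 members, or 77.2%, against 45.3% of genes on the other 17 autosomes. The excess lay in modest changes: 36.0% of members were between 0.25 and 0.58 above WT, against 12.3% elsewhere, and 34.5% were between 0 and 0.25, against 29.5%. At the far end, 32 members (6.81%) were at least 1.5-fold higher, against 3.44% elsewhere, and 7 (1.49%) at least 2-fold higher, against 0.936%. Changes of at least 1.5-fold in the other direction were seen in 7 members (1.49%), against 5.49% elsewhere.

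Among the autosomes, chromosome 8 was one of a pair with a median apart from the rest. The medians of the other 17 ran from -0.15 to 0.01, and between 23.1% and 52.8% of the genes on each were above 0. Chromosome 6, with 364 genes under the same rule, had a median of 0.45, which was 0.48 above the other 17 autosomes. The chromosome 8 difference of 0.24 was thus the smaller of the pair. No test was made of these chromosome medians, since neighbouring genes are not independent replicates and both chromosomes were known beforehand to be high.

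**Figure D1:**
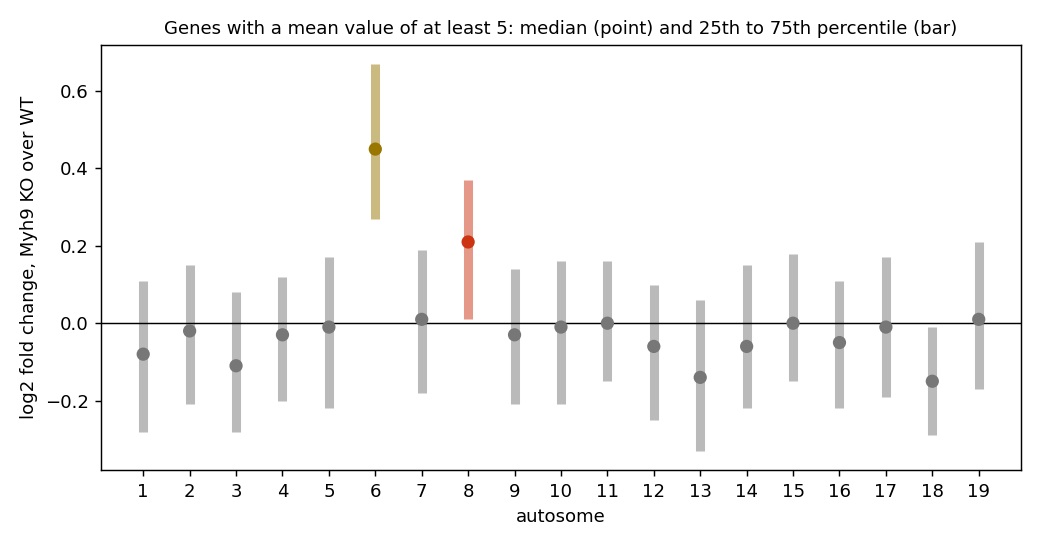
Log2 fold change (Myh9 KO over WT, y axis) of genes averaging 5 or more on each autosome (x axis), under the name rule used for chromosome 8; points are medians and bars run from the 25th to the 75th percentile of genes. The chromosome 8 median of 0.21 and the chromosome 6 median of 0.45 lie above those of the other 17 autosomes, which run from -0.15 to 0.01.

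Along the chromosome the shift was not carried by one segment. The members were placed by gene start into 13 windows of 10 Mb that held 8 to 74 genes. All 13 window medians were above 0, from 0.07 at 50 to 60 Mb to 0.34 at 70 to 80 Mb. Without WT 1 or without Myh9 KO 1, 12 of 13 were above 0 and the lowest stood at -0.01 and -0.02. On the other 17 autosomes 52 of 204 windows, or 25.5%, had a median above 0, and the highest reached 0.14. Of those 204, 14 were at or above the lowest chromosome 8 window and 0 were at or above the chromosome 8 median of 0.21. Chromosome 6 had 15 windows with medians from 0.30 to 0.61.

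The size of the shift differed between stretches. In order, the first 2 windows had medians of 0.22 and 0.21; the 5 windows from 20 to 70 Mb had 0.08, 0.12, 0.10, 0.07 and 0.08; and the 6 from 70 Mb onwards had 0.34, 0.27, 0.20, 0.22, 0.24 and 0.14. The low middle stretch held the members poorest in G and C, with a median GC content down to 42.5% at 50 to 60 Mb against 56.1% at 70 to 80 Mb. In 12 of the 13 windows both Myh9 KO medians were above both WT medians. The exception was 50 to 60 Mb, with 8 genes, where Myh9 KO 1 stood at 0.12 and Myh9 KO 2 at -0.02, beside -0.02 and 0.02 in WT. The medians of replicate libraries in a window differed by up to 0.16 in WT and 0.14 in Myh9 KO, so the order among the middle windows is within that spread.

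**Figure D2:**
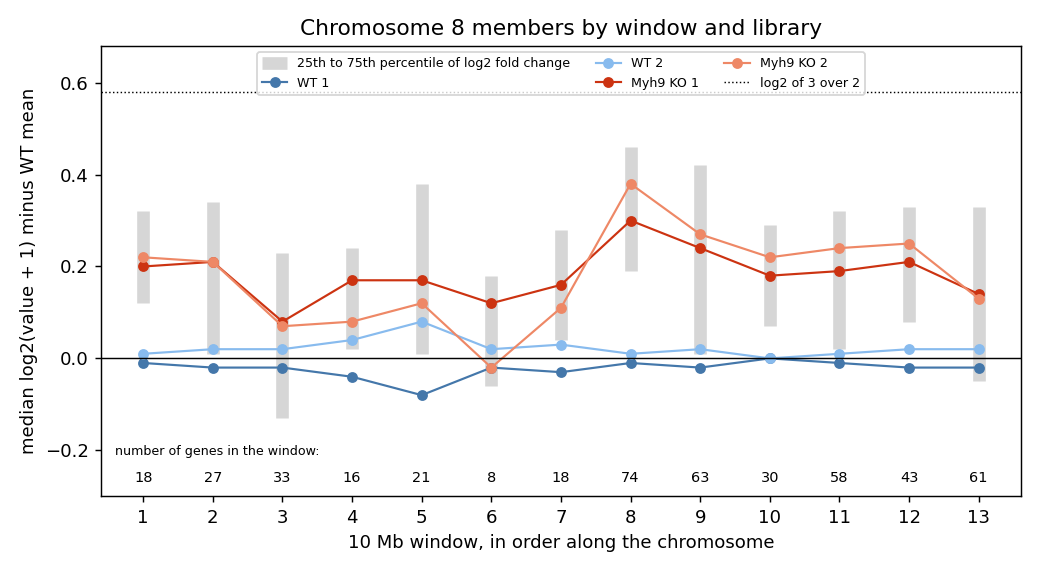
Median log2(value + 1) minus the WT mean (y axis) of chromosome 8 members in 13 consecutive windows of 10 Mb (x axis, in order along the chromosome), with a line for each library, grey bars from the 25th to the 75th percentile of the log2 fold change, and gene numbers at the foot. Both Myh9 KO lines lie above the WT lines in 12 windows; in the sixth, which holds 8 genes, Myh9 KO 2 falls to the WT level and Myh9 KO 1 does not. All lines stay below the dotted line at 0.58.

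Narrower windows showed the same picture with a few exceptions. With 5 Mb windows, 21 of 22 medians were above 0. The highest, 0.35, was reached at 70 to 75 Mb (65 genes) and at 80 to 85 Mb (39 genes). Of the latter 39, 15 were called higher, beside 13.6% of all members and 5.11% of all genes tested. The lowest median, -0.03, was at 125 to 130 Mb, the distal end of the chromosome, with 11 genes. With runs of 20 consecutive members, 23 of 24 medians were above 0, the highest being 0.41 for the run from Ushbp1 to Cherp near 72 Mb. The last 10 members, from Sipa1l2 to Itgb1, had a median of -0.04. Itgb1, the beta 1 integrin subunit through which ES cells hold to matrix, had values of 27 and 30 in WT, then 30 and 25 in Myh9 KO.

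Fold changes moved with GC content among genes of the other autosomes too, so chromosome 8 was read within GC classes. From the lowest to the highest quartile of transcript GC content, member medians were 0.07, 0.20, 0.22 and 0.32, and medians of the other 17 autosomes were -0.17, -0.06, 0.02 and 0.08. The differences were 0.24, 0.26, 0.20 and 0.24. The gap between chromosome 8 and the rest was therefore of like size in GC-poor and GC-rich genes. With a trend on GC content and transcript length removed, the 13 window medians ran from 0.15 to 0.44 and the 5 windows from 20 to 70 Mb stood at 0.20, 0.24, 0.26, 0.44 and 0.27, no longer the lowest on the chromosome. On the same scale 117 of 204 windows of the other 17 autosomes (57.4%) were above 0, the highest at 0.25, and 13 reached the lowest chromosome 8 window. The distal run of 10 members rose to 0.12 on this scale.

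The gap was also present at every level of expression. For mean values of 5 to 10, 10 to 20, 20 to 50, 50 to 100 and 100 upwards, member medians were 0.16, 0.13, 0.19, 0.26 and 0.24, and the differences from the other autosomes were 0.16, 0.17, 0.22, 0.28 and 0.28. Of the 96 members with a mean of 100 or more, 88.5% were above 0, against 42.1% of such genes elsewhere. On chromosome 6 the differences in the same classes were 0.42, 0.46, 0.49, 0.51 and 0.53. The scale understates changes of low values, and its part in the smaller differences among low members was not tested. By quartile of transcript length, the differences were 0.25, 0.24, 0.22 and 0.19. The 335 members that overlap no other gene had a median of 0.20, and the 135 that overlap one had 0.22; the library protocol marks no strand, so reads of overlapping genes cannot be told apart.

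**Figure D3:**
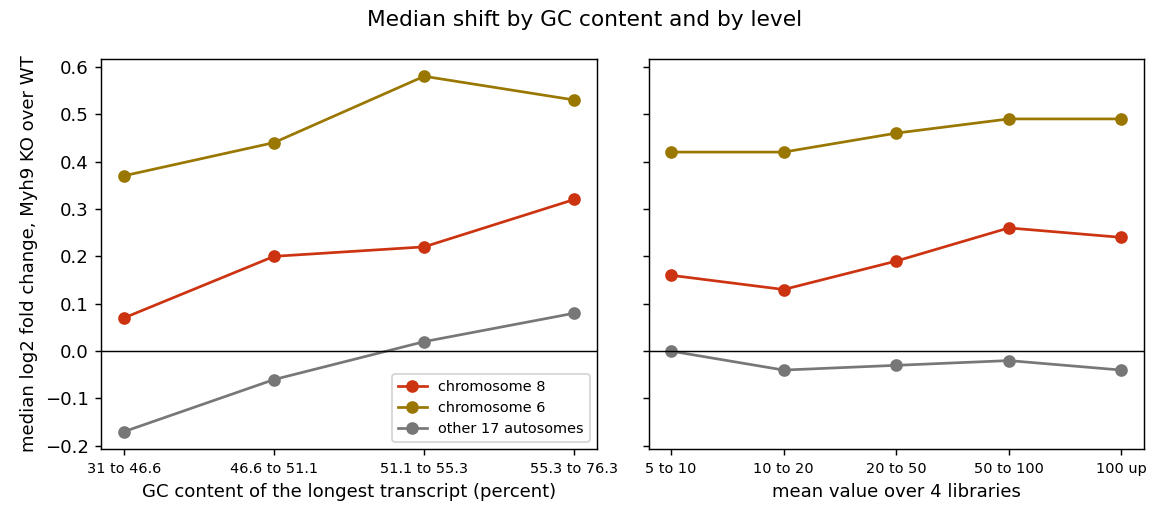
Median log2 fold change (Myh9 KO over WT, y axes) by quartile of transcript GC content in percent (left) and by mean value over the 4 libraries (right), for chromosome 8 members, chromosome 6 and the other 17 autosomes under the same rule. The chromosome 8 line lies above that of the other autosomes by 0.20 to 0.26 in the GC classes and by 0.16 to 0.28 in the level classes.

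A gene was called only when limma with Benjamini-Hochberg adjustment over all 11231 tested genes gave an adjusted p under 0.05 in the same direction on the deposited whole numbers and again after random decimals were added to them. By this rule 64 members (13.6%) rose and 5 (1.06%) fell in Myh9 KO. Over all genes tested, 5.11% were called higher and 5.8% lower; on the other 17 autosomes under the members' rule the shares were 3.79% and 6.66%, and on chromosome 6 they were 39.6% and 2.2%. The other 401 members were not called, which does not show that they were unchanged. Counting only whether the 2 values of one group all lay beyond those of the other, 272 members (57.9%) were higher and 49 (10.4%) lower in Myh9 KO, beside 30.5% and 30.7% of all genes with a mean of at least 5.

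With 2 libraries a group the number of calls depended strongly on each library, unlike the medians. Without WT 1 there were 8 members called higher (1.7%, near the 1.15% of all genes in that fit) and 2 lower (0.426% against 1.72%). Without WT 2 there were 14 (2.98% against 1.32%) and 2 (0.426% against 1.68%), and without Myh9 KO 1 there were 31 (6.6% against 3.01%) and 1 (0.213% against 3.59%). Without Myh9 KO 2 limma called 24 higher (5.11% against 2.39%) and 0 lower (against 2.58%), where 126 and 17 passed an unadjusted limma p of 0.05 and the random decimals alone called 118 and 15. Of the 24 named genes called, 18 were no longer called without Myh9 KO 1 and 19 without each of the other libraries, with no change of direction. The median of the members stayed between 0.18 and 0.22 in those 4 fits. By random decimals alone, 154 members were higher (32.8%, against 11.0% of all genes tested) and 16 lower (3.4%, against 11.9%). With the trend on GC content and length removed, 178 were higher (37.9%, against 13.4% of all genes in that fit) and 18 lower (3.83%, against 9.21%).

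**Figure D4:**
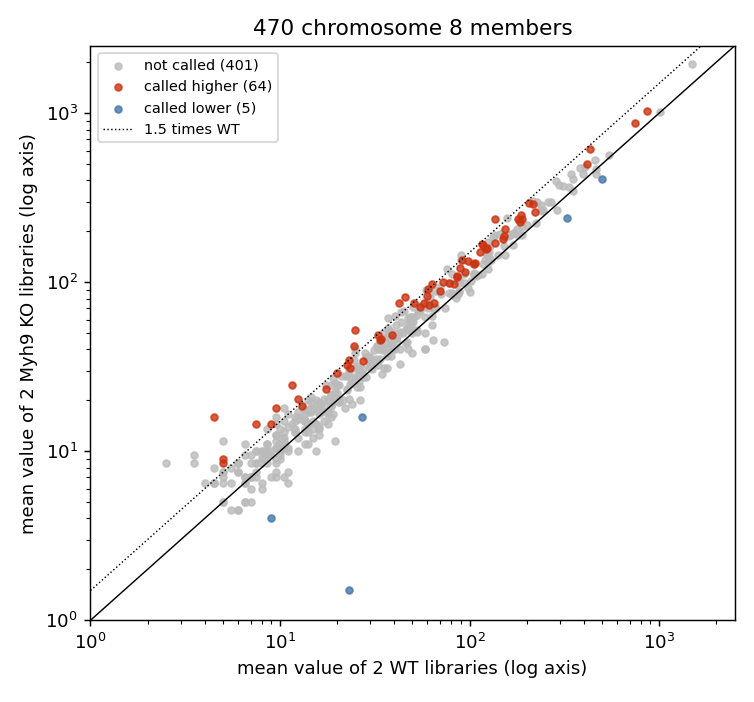
Mean value of the 2 Myh9 KO libraries (y axis, log scale) against the mean of the 2 WT libraries (x axis, log scale) for each of the 470 chromosome 8 members, with those called higher in red, called lower in blue and not called in grey. Most points lie between the solid line of equal values and the dotted line at 1.5 times WT, with 64 called higher and 5 called lower.

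The largest rises among named members reached about a doubling. Adgrl1 (chr8:83900105-83941954), which encodes the adhesion receptor latrophilin 1, had values of 26 and 24 in WT, then 51 and 54 in Myh9 KO, 1.04 on the log2 scale (SE 0.06, adjusted p = 0.0156 by limma). Necab2 (chr8:119446719-119472640), a neuronal calcium-binding protein, had 12 and 11 in WT, then 23 and 26 in Myh9 KO (1.03, SE 0.09). The rises named here were picked among called members whose groups did not overlap, so that lack of overlap was set by the choice. Psmb10 (chr8:105935735-105938444), a catalytic subunit of the immunoproteasome, had 45 and 46 in WT, then 82 and 81 in Myh9 KO, 0.83 on the log2 scale (SE 0.02, adjusted p = 0.00346 by limma). It was still called when any 1 library was left out.

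Other rises of this size came from unrelated kinds of genes. Isyna1 (chr8:70594373-70597290), the synthase that makes inositol phosphate from glucose 6-phosphate, had 132 and 142 in WT, then 227 and 249 in Myh9 KO (0.79). Hook2 (chr8:84990603-85003349), an adaptor between cargo and microtubules, had 25 and 24 in WT, then 42 and 42 in Myh9 KO (0.75). Cdk10 (chr8:123224842-123232250), a cyclin-dependent kinase, had 40 and 45 in WT, then 71 and 79 in Myh9 KO (0.81). Cdk10 overlaps the predicted gene Gm20388, so its value may hold reads of both. The same holds for Aprt, Usp10, Tubb3, Chmp1a and Tcf25, named below. Lamp1, Ddx39, Nacc1, Rnaseh2a, Polr2c and Aars, also named below, each overlap another gene. The low members Tldc1 (8 and 7 to 15 and 14), Abhd8 (9 and 10 to 17 and 19), Pgpep1 (12 and 13 to 20 and 21) and Rasa3 (5 and 5 to 8 and 9) had log2 fold changes of 0.87, 0.86, 0.67 and 0.66. Of these 4, Rasa3 encodes a GTPase-activating protein for Ras-family proteins. The largest rise of all, outside the naming rule and picked after its value was seen, was the predicted gene Gm2694, with 5 and 4 in WT, then 16 and 16 in Myh9 KO (1.63); it overlaps Cbln1, which had 3 and 2 in WT, then 8 and 9 in Myh9 KO and was not called.

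The 5 members that fell ran against the chromosome. Adrb3 (chr8:27225776-27250616), the beta 3 adrenergic receptor, had 26 and 28 in WT, then 16 and 16 in Myh9 KO, -0.72 on the log2 scale (SE 0.05, adjusted p = 0.0188 by limma). Gcsh (chr8:116981810-116993537), the lipoyl-carrying H protein of the glycine cleavage system, had 330 and 320 in WT, then 245 and 234 in Myh9 KO (-0.44, SE 0.04). Gabarapl2 (chr8:111940703-111953612), a member of the ATG8 family that builds autophagosomes, had 506 and 498 in WT, then 413 and 403 in Myh9 KO (-0.30, SE 0.02). These 3, like the rises, were picked among called members without overlap between groups, and calling itself favours close replicates. With the trend on GC content and length removed, the Gabarapl2 difference was -0.04 and was not called, and that of Gcsh was -0.23. The remaining 2 were predicted genes named only because so few fell: Gm45899 (18 and 28 in WT, 2 and 1 in Myh9 KO) and Gm45322 (8 and 10 in WT, 4 and 4 in Myh9 KO). These share 86.6% and 62.4% of their 50-base words with other genes, so their reads cannot be assigned with confidence. Gabarapl2 shares 12.2%. Among other genes named, Tfdp1 and Got2 share 16.8% each, Nacc1 13.9%, Aars 13.5%, Tpm4 11.7%, Polr2c 11.2% and Cdk10 10.7%.

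The most strongly expressed members followed the shift in part. Calr, the calcium-binding chaperone calreticulin of the endoplasmic reticulum, had 850 and 874 in WT, then 1021 and 1034 in Myh9 KO (0.25, called). Both Myh9 KO values of Calr lay above both WT values.

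Tecr, the last reductase of very long chain fatty acid elongation, had 432 and 436 in WT, then 601 and 623 in Myh9 KO, 0.49 on the log2 scale (SE 0.02, adjusted p = 0.0116 by limma). Asna1, the ATPase that delivers tail-anchored proteins to the endoplasmic reticulum, had 745 and 756 in WT, then 879 and 874 in Myh9 KO (0.22, called). Kars, the lysyl-tRNA synthetase, had 417 and 418 in WT, then 492 and 507 in Myh9 KO (0.26, called). These 3 rose, each with replicates close together. Aprt, the adenine salvage enzyme, had 467 and 450 in WT, then 510 and 552 in Myh9 KO (0.21, not called). Eif4ebp1, a repressor of cap-dependent translation, had 541 and 542 in WT, then 546 and 593 in Myh9 KO (0.07, not called). Sap18b had 472 and 456 in WT, then 454 and 476 in Myh9 KO (0.00), but 98.8% of its words are shared with other genes, so it says little of this locus.

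**Figure D5:**
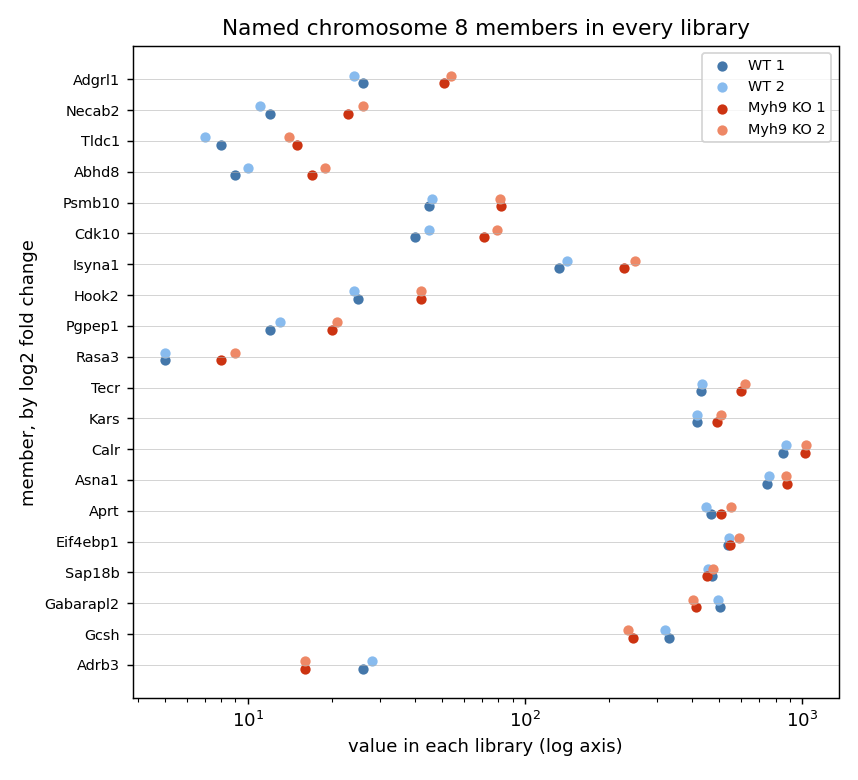
Value in each of the 4 libraries (x axis, log scale) for the 10 largest named rises, the 3 named falls and 7 members with the highest means, ordered by log2 fold change (y axis). The rises from Adgrl1 to Rasa3 and the falls Gabarapl2, Gcsh and Adrb3 were picked for no overlap between WT and Myh9 KO. The values of Sap18b interleave.

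Read by role, the shift ran through 9 unrelated lists that hold 170 of the members, some in more than 1 list. List medians went from 0.10 to 0.29, beside 0.21 for all members and -0.03 for the other autosomes. The 300 members in no list had a median of 0.18 with 39 called higher and 3 lower. Of all members 13.6% were called higher and 1.06% lower, beside 5.11% and 5.8% of all genes tested. Counts called in each list below were not compared with these shares by a test. Members of the lists that were called but are not among the 3 with the highest mean were named after their values were seen.

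Of 23 cell cycle, chromosome and DNA repair genes, 20 were above 0, 6 rose and 0 fell, with a median of 0.29. E2f4, a cell cycle transcription factor of the E2F family, had 186 and 186 in WT, then 247 and 255 in Myh9 KO (0.43 on the log2 scale). Its dimer partner Tfdp1 had 133 and 139 in WT, then 173 and 166 in Myh9 KO. Rnaseh2a, the catalytic subunit of ribonuclease H2, had 221 and 223 in WT, then 263 and 261 in Myh9 KO. All 3 rose, as did Babam1 and Cdk10.

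Of 34 chromatin and transcription regulators, 28 were above 0, 5 rose (Tfdp1, Gatad2a, Nacc1, E2f4 and Tcf25) and 0 fell, with a median of 0.27. Nacc1, a BTB-domain regulator that takes part in the pluripotency network, had 212 and 218 in WT, then 280 and 297 in Myh9 KO. Gatad2a, a subunit of the NuRD remodelling complex, had 205 and 207 in WT, then 282 and 303 in Myh9 KO. Both rose with no overlap between groups. Ash2l, a core subunit of histone H3 lysine 4 methyltransferases, had 242 and 245 in WT, then 275 and 259 in Myh9 KO, and Polr2c, a subunit of RNA polymerase II, had 244 and 240 in WT, then 264 and 264 in Myh9 KO; neither was called.

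Of 24 RNA processing and ribosome biogenesis genes, 23 were above 0 and 3 rose (Ddx49, Nudt21 and Ddx19b), with a median of 0.28 and 0 that fell. Lsm4, a subunit of the U6 snRNA-binding ring, had 338 and 345 in WT, then 420 and 459 in Myh9 KO. Nip7, a ribosome biogenesis factor, had 226 and 206 in WT, then 296 and 307 in Myh9 KO. The RNA helicase Ddx39 had 396 and 394 in WT, then 429 and 443 in Myh9 KO. The values of these 3 did not overlap between groups, yet none was called (limma adjusted p of 0.0673, 0.0505 and 0.0636).

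Of 25 vesicle traffic and lysosome genes, 20 were above 0, 6 rose and 1 fell, with a median of 0.29. Rab8a, a small GTPase of exocytic traffic, had 93 and 89 in WT, then 138 and 133 in Myh9 KO. Use1, a SNARE protein of traffic between Golgi and endoplasmic reticulum, had 175 and 189 in WT, then 227 and 238 in Myh9 KO and was not called. Lamp1, an abundant lysosomal membrane protein, had 461 and 467 in WT, then 443 and 434 in Myh9 KO, not called either. The other members that rose were Ap1m1, Arl2bp, Atp6v0d1, Vac14 and Chmp1a, and the 1 that fell was Gabarapl2.

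Of 16 ubiquitin and proteasome genes, 12 were above 0, 3 rose, Psmb10 and Wwp2 among them, and 0 fell, with a median of 0.22. Psmd7, a subunit of the proteasome's regulatory particle, had 265 and 270 in WT, then 303 and 291 in Myh9 KO. The deubiquitinase Usp10 had 241 and 237 in WT, then 278 and 296 in Myh9 KO. Psmd7 and Usp10 were not called, though their groups did not overlap.

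Of 17 signalling proteins, 12 were above 0, 3 rose (Rasa3, Adgrl1 and Prkaca) and 0 fell, with a median of 0.14. Prkaca, the catalytic subunit alpha of protein kinase A, had 114 and 113 in WT, then 148 and 154 in Myh9 KO. The adaptor Gab1 had 122 and 128 in WT, then 128 and 135 in Myh9 KO, and the casein kinase 2 subunit Csnk2a2 had 105 and 105 in WT, then 118 and 103 in Myh9 KO. Values of Gab1 met at 128 and those of Csnk2a2 overlapped, and neither was called.

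Of 19 mitochondrial and metabolic enzymes, 14 were above 0, 1 rose (Gcdh) and 1 fell (Gcsh), with a median of 0.19. Got2, the mitochondrial aspartate aminotransferase, had 304 and 289 in WT, then 364 and 392 in Myh9 KO and was not called. Of 6 translation and aminoacyl-tRNA synthesis genes, 5 were above 0, 1 rose (Kars) and 0 fell, with a median of 0.10. Aars, the alanyl-tRNA synthetase, had 326 and 341 in WT, then 359 and 375 in Myh9 KO and was not called.

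Of 16 cytoskeleton and adhesion genes, the group nearest in function to the deleted myosin, 12 were above 0, with a median of 0.22, and limma called 0 in either direction. At an unadjusted p of 0.05 there were 7, and with random decimals alone 5 were higher and 1 lower. Map1s, a microtubule-associated protein, had 64 and 67 in WT, then 82 and 96 in Myh9 KO. Tpm4, a tropomyosin that coats actin filaments, had 56 and 60 in WT, then 51 and 49 in Myh9 KO, and the beta tubulin Tubb3 had 100 and 101 in WT, then 89 and 85 in Myh9 KO. Map1s thus lay higher in Myh9 KO and Tpm4 and Tubb3 lower, none of them called. With the trend on GC content and length removed, Map1s stood at 0.27 and Tpm4 at -0.01, beside 0.43 and -0.21 before. Map1s was called in that fit, though its change was smaller, and Tpm4 was not.

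At the lower bound of the mean, Cdkn2aip (5 and 6 in WT, 5 and 4 in Myh9 KO) was just inside. Abhd13 (4 and 5, then 5 and 5) and Alg11 (5 and 4, then 5 and 5) were just outside, and at such values a step of 1 is a large share of the value.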

How the data were processed

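Per the labels' protocols, TRIzol was used to isolate total RNA, oligo-dT beads to select mRNA and random hexamers to prime cDNA, with no step that marks the strand. The authors deposited 1 table of 50600 genes with a value per library, treated here as a score: whole numbers with nearly equal sums, such as normalized values without their decimals. Their normalization is not given in the sources used here, so depth, and any interval that needs it, is unknown. Bowtie2 2.2.5, RSEM 1.3.0 and bcl2fastq are named per the submitters' processing notes without a role, beside 2 builds, mm10 and hg38. GENCODE vM21 (mm10) held 50376 of the 50600 identifiers, 92.99% with the same coordinates, as were 467 of the 470 members.

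Since the values were not counts, limma-trend (limma 3.58.1, R 4.3.3) was run on log2(value + 1) over all genes averaging at least 1, all 4 libraries, no replicate block, with adjustment over all genes tested. Equal whole numbers leave no spread, so a second fit added a uniform number from 0 to 1 to each value (median adjusted p over 25 draws), and calls needed both. The procedure was tested on simulated data. SE and p have n = 2 libraries per group. Members, role lists and tests were chosen with earlier results of these data known. The genes named are Myh9, then the 10 largest rises and up to 5 largest falls among called members without overlap (predicted genes, Rik clone names and pseudogenes left out), the 8 members with the highest mean, the 3 highest of each list and the genes beside the mean of 5. Alternatives covered pseudocount, filter, scaling, GC content and length, windows, the member rule, a replicate block and each library left out. A few genes that the naming rule picks are not reported here.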

Additional observations from a re-analysis of the deposited data

How the results depend on the processing

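The medians were the stable values and the calls the unstable ones. The median of the members lay between 0.18 and 0.22 with each library left out in turn, and was 0.24 after removal of the trend on GC content and length, and 0.23 when centred on genes outside chromosomes 6 and 8. Its difference from the other autosomes, 0.24, stayed between 0.22 and 0.25 under every alternative run. Members called higher, 64, numbered 100 when genes with a mean of at least 5 were tested, 129 when centred, 178 with the trend removed, 154 with random decimals alone, and 8 to 31 with a library left out. Calls over all genes moved too, from 5.11% higher to 8.67%, 9.02%, 13.4% and 11.0% in the first 4 of these and to between 1.15% and 3.01% with a library left out. Members called lower, 5, numbered 8, 12, 18 and 16 under the same settings and 0 to 2 with a library left out. They numbered 8 with no name dropped and with a mean of at least 1, and 3 with a mean of at least 20. With 2 limits chosen after the data were seen, 2 fell among members with at most 10% shared words and 3 with a mean of at least 5 in each group. The same replicate numbers in both groups are not stated to mark pairs, and with only 2 pairs the correlation of same-numbered deviations (0.12 over 8228 genes) does not show it. With a replicate block, limma called 0 members higher and 0 lower, while 165 and 19 passed an unadjusted p of 0.05 and random decimals alone called 165 and 17. Windows above 0 were 21 of 22 at 5 Mb and 23 of 24 with 20 consecutive genes. The lowest window median, 0.07, ranged from -0.02 to 0.08 with a library left out (-0.01 without WT 1, -0.02 without Myh9 KO 1) and turned to -0.01 with a mean of at least 20, -0.02 with a mean of at least 1, -0.03 at 5 Mb and -0.04 with 20 consecutive genes; the cause was not tested. Of the 24 named genes called, 18 or 19 were no longer called with a library left out. Unknown depth limits what can be said of members with low values.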

Other observations

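Chromosome 8 genes outside the member rule also had a median above 0 in each set below. The summed value of all chromosome 8 rows outside the members changed little. The 52 genes left out by name had a median log2 fold change of 0.20, with 80.8% above 0, 12 called higher (23.1%) and 3 lower (5.77%). Over all genes tested, 5.11% were called higher and 5.8% lower, so the share called lower was near that of all genes. The 124 chromosome 8 genes with a mean value from 1 to under 5 had a median of 0.16, against 0.00 for 2598 such genes of the other 17 autosomes. Above 0 were 55.6% of the 124 and 39.3% of the 2598. Of these 124, 5 (4.03%) were called higher and 3 (2.42%) lower, against 1.77% and 4.46% of the 2598; the share called higher was below the 5.11% of all genes tested. The metallothionein genes Mt3 (1 and 1 in WT, 8 and 8 in Myh9 KO) and Mt4 (0 and 0 in WT, 4 and 6 in Myh9 KO) were among those higher, as was Calb2, a calcium-binding protein, with 2 and 2 in WT, then 6 and 6 in Myh9 KO. Pkd1l2, a polycystin family gene that lies next to Gcsh, had 9 and 7 in WT and was listed at 0 in both Myh9 KO libraries. These genes were picked after their values were seen.

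On the other 17 autosomes, the window with the lowest median was at 100 to 110 Mb of chromosome 10, at -4.5, with 10 genes of which 7 were called lower.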
